A study of Mus musculus with 18 samples.

Results

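Mouse alveolar macrophages labelled as lacking Vhl together with both HIF alpha subunits were compared with macrophages of the matching floxed controls. The comparison was chosen by genotype alone and used 6 of the 18 libraries of the series, 3 knockout and 3 control, and all 12900 genes that passed a filter on low counts out of 32789 in the table. The knockout libraries carry the genotype CD11c-Cre_Vhl-Hif1-Hif2-KO, in which Cre recombinase under the promoter of Itgax, the gene for CD11c, acts on floxed Vhl, Hif1a and Epas1 alleles (Hif2 is the product of Epas1). The controls are labelled as flox-flox for the same 3 genes, and the labels used here do not say whether they carry Cre. What all 6 libraries share is therefore the set of floxed alleles, the cell source and the selection. Cells came from bronchoalveolar lavage and were enriched on columns with CD11c MicroBeads, so the selection marker is the gene whose promoter drives Cre. Poly(A) RNA was sequenced with a directional kit. The labels used here give no age, sex or strain, and nothing says that libraries of a group came from separate animals. The p-values therefore measure the spread between libraries of a group, which may be technical. Unless stated otherwise, that spread was estimated over all 18 libraries and not the 6 alone.

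VHL is the substrate receptor of a ubiquitin ligase that marks HIF-1 alpha and HIF-2 alpha for destruction after prolyl hydroxylases, encoded by the Egln genes, have modified them in the presence of oxygen. Without VHL the alpha subunits persist in normal oxygen, pair with ARNT and switch on genes of glycolysis, oxygen sensing and other hypoxia responses. Alveolar macrophages live in an oxygen-rich airspace, clear surfactant lipid and carry high CD11c. Removal of Vhl and both alpha subunits is given by the labels, and the gene totals below do not check the Hif1a and Epas1 deletions. If removal was complete, what remains is any effect of VHL that does not pass through these subunits. Anything else that differs between knockout and control animals would remain as well. The other crosses of the series, in which Vhl was deleted by CD11c-Cre with only Hif1a or only Hif2a, each with 3 knockout libraries and 3 of the matching floxed control, gave the background for this comparison.

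Levels are given as counts per 1000000 counts of the scaled library (CPM). Library totals were 28090000 to 30962000 counts in the triple knockout and 24728000 to 30664000 in the triple control. Control 2 stood apart from the other 5 libraries before any comparison. Its mitochondrially encoded genes held 0.709% of counts, against 1.75% to 3.07% in the other 17 libraries of the series. Its rank correlation with the other triple-cross libraries was 0.973 to 0.977, while those 5 correlated with each other at 0.994 to 0.997. On the first principal component of the 6 libraries, which carried 69.7% of the variance, control 2 lay at 47.5 and the others between -11.5 and -5.72. Across 11176 genes, the deviation of control 2 from the other libraries rose with the GC content of the transcript (Spearman's rho across genes 0.842, against -0.309 to 0.0578 in the others). Genes are not independent replicates, and the GC relation is given as a description. From the bin of lowest to the bin of highest GC content, of 10 bins, the median deviation of control 2 went from -0.73 to 0.66 on the log2 scale. The labels name no batch, so what set this library apart was not tested, and results that rest on it are given with and without it. The 6 triple-cross libraries had Xist at 0.229 to 0.377 CPM and Ddx3y at 47.3 to 110.1 CPM, and the 12 libraries of the other crosses had Xist at 290.8 to 745 CPM and Ddx3y at 0 to 0.0881 CPM. The triple-cross groups were alike in these sex-linked genes, but the crosses were not, so a difference between crosses cannot be told apart from a difference between sexes.

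**Figure D1:**
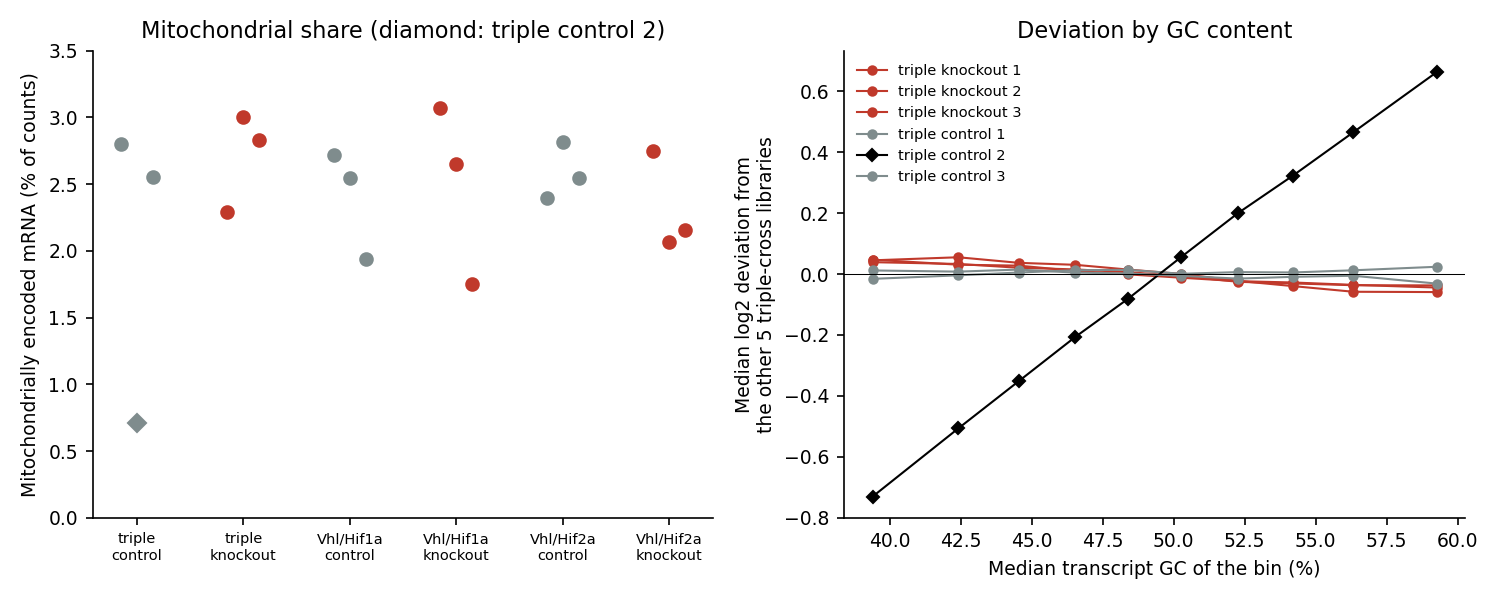
Control 2 beside the other libraries of the series: share of counts in mitochondrially encoded genes in each library (percent, left), and median deviation from the other triple-cross libraries in each of 10 bins of genes ordered by GC content (log2 scale, right). Control 2, at 0.709%, lies under all 17 other libraries, and its deviation runs from -0.73 to 0.66 along the GC axis.

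The transcriptome of the triple knockout differed from its control at very few genes. By edgeR's quasi-likelihood test, fitted over all 18 libraries with Benjamini-Hochberg adjustment, 5 of 12900 genes passed an adjusted p of 0.05 (0.0388%). Of these, 4 were higher in the knockout (0.031%), Plcb4, Pagr1a, Itgam and Itgax, and 1 was lower (0.00775%), Vhl itself. At a share of 0.0388% most gene lists hold no call, so an empty list is no result about its genes. In the same fit the Vhl/Hif1a knockout differed from its own control at 469 genes (3.64%), of which 286 were higher (2.22%) and 183 lower (1.42%), and the Vhl/Hif2a knockout at 1895 genes (14.7%), of which 991 were higher (7.68%) and 904 lower (7.01%). For 10551 genes (81.8%) the 95% confidence interval of the change lay within 2-fold in either direction, and the median standard error was 0.144 on the log2 scale. The widest fitted log2 fold changes, -9.72 and 7.49, belonged to genes that did not pass.

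At an unadjusted p under 0.05 there were 1484 genes (11.5%), a share that moved with control 2. Without that library 346 of 13151 genes passed this level, 145 higher and 201 lower. All 3 knockout libraries lay above all 3 controls for 899 genes (6.97%) and below them for 1076 genes (8.34%). Without control 2 the number of called genes was 3, namely Plcb4, Itgax and Vhl, while the other crosses, which lost no library but shared the estimate of spread, went to 861 and 2907. DESeq2 called 11 genes and limma voom with quality weights per library called 13, and the 5 genes above were among both sets.

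**Figure D2:**
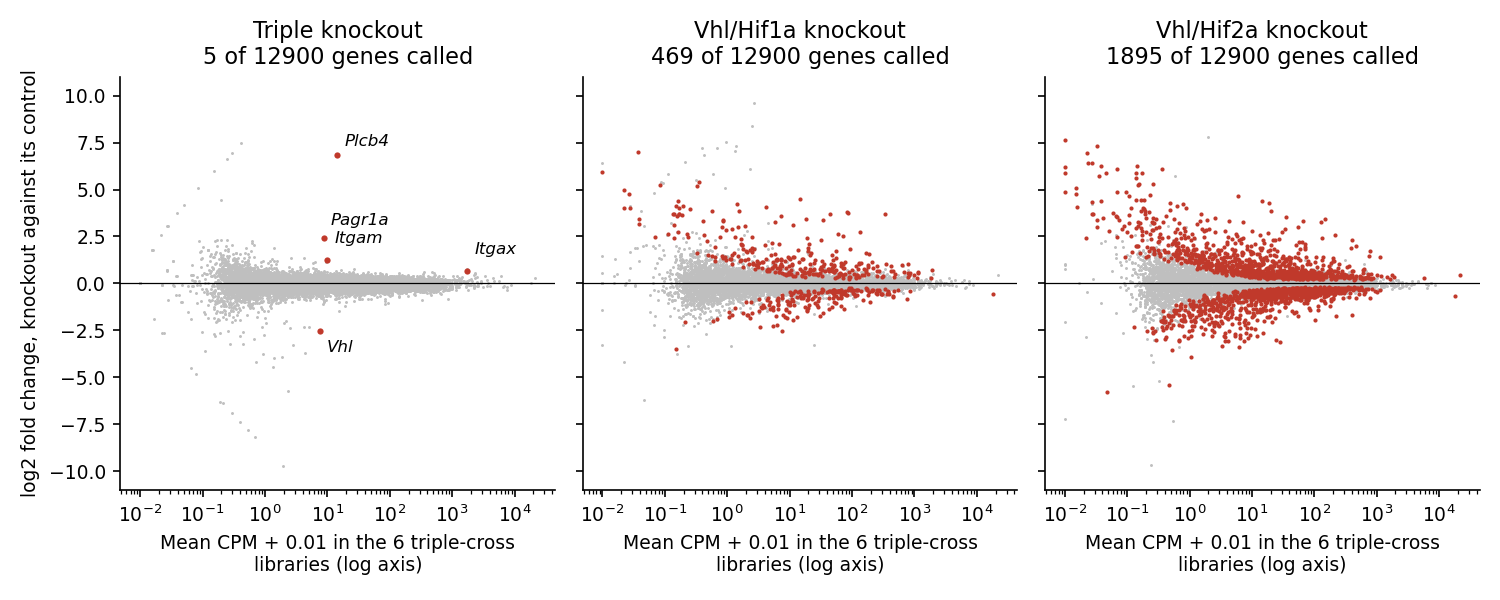
Log2 fold change of each tested gene against its mean level in the 6 triple-cross libraries (CPM + 0.01, log axis) in the triple knockout, the Vhl/Hif1a knockout and the Vhl/Hif2a knockout, each against its own control. Red points passed an adjusted p of 0.05 by edgeR's quasi-likelihood test, which held for 5, 469 and 1895 genes.

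Vhl, the deleted gene that encodes the substrate receptor, was low in every knockout library. It stood at 1.96, 2.10 and 2.53 CPM in the knockouts and at 12.3, 12.2 and 14.3 CPM in the controls, and the groups did not overlap. The means were 2.20 ± 0.30 and 12.9 ± 1.20 CPM (SD, n = 3 each), a 5.88-fold lower level (log2 fold change -2.56 ± 0.16 SE; adjusted p 1.17e-07 by edgeR's quasi-likelihood test). The groups' summed counts were 193 and 1042, so some Vhl reads remained in each knockout library. The Vhl/Hif1a and Vhl/Hif2a knockouts had log2 fold changes of -2.55 and -3.05, and neither difference from the triple knockout passed the test (adjusted p 0.99 and 0.18). Vhl is annotated at chr6:113623959-113631633 (GRCm38), and of its 28 tested neighbours within 1000 kb none was called.

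The totals of the other targeted genes did not separate the groups. Hif1a, the gene of HIF-1 alpha at chr12:73901375-73947530, stood at 236, 241 and 239 CPM in the knockouts and at 251, 137 and 238 CPM in the controls. The low value belonged to control 2, and the groups overlapped. Its log2 fold change was 0.19 ± 0.18 (edgeR adjusted p 0.56), and -0.04 without control 2. Epas1, the gene of HIF-2 alpha at chr17:86753700-86833410, stood at 38.4, 30.6 and 33.7 CPM in the knockouts and 37.2, 51.4 and 32.6 CPM in the controls, with overlapping groups, and its log2 fold change was -0.24 ± 0.19 (edgeR adjusted p 0.51), or -0.03 without control 2. A gene total includes exons outside a floxed segment and reads of 2 tested models that overlap Hif1a, so these totals do not check either deletion. In the libraries labelled Vhl/Hif2a knockout, Hif1a was lower than in their control (log2 fold change -1.71 ± 0.18, adjusted p 4.3e-06) and Epas1 was higher (0.97, adjusted p 0.0019), and both effects differed from those of the triple knockout, by 1.90 and -1.21 on the log2 scale.

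**Figure D3:**
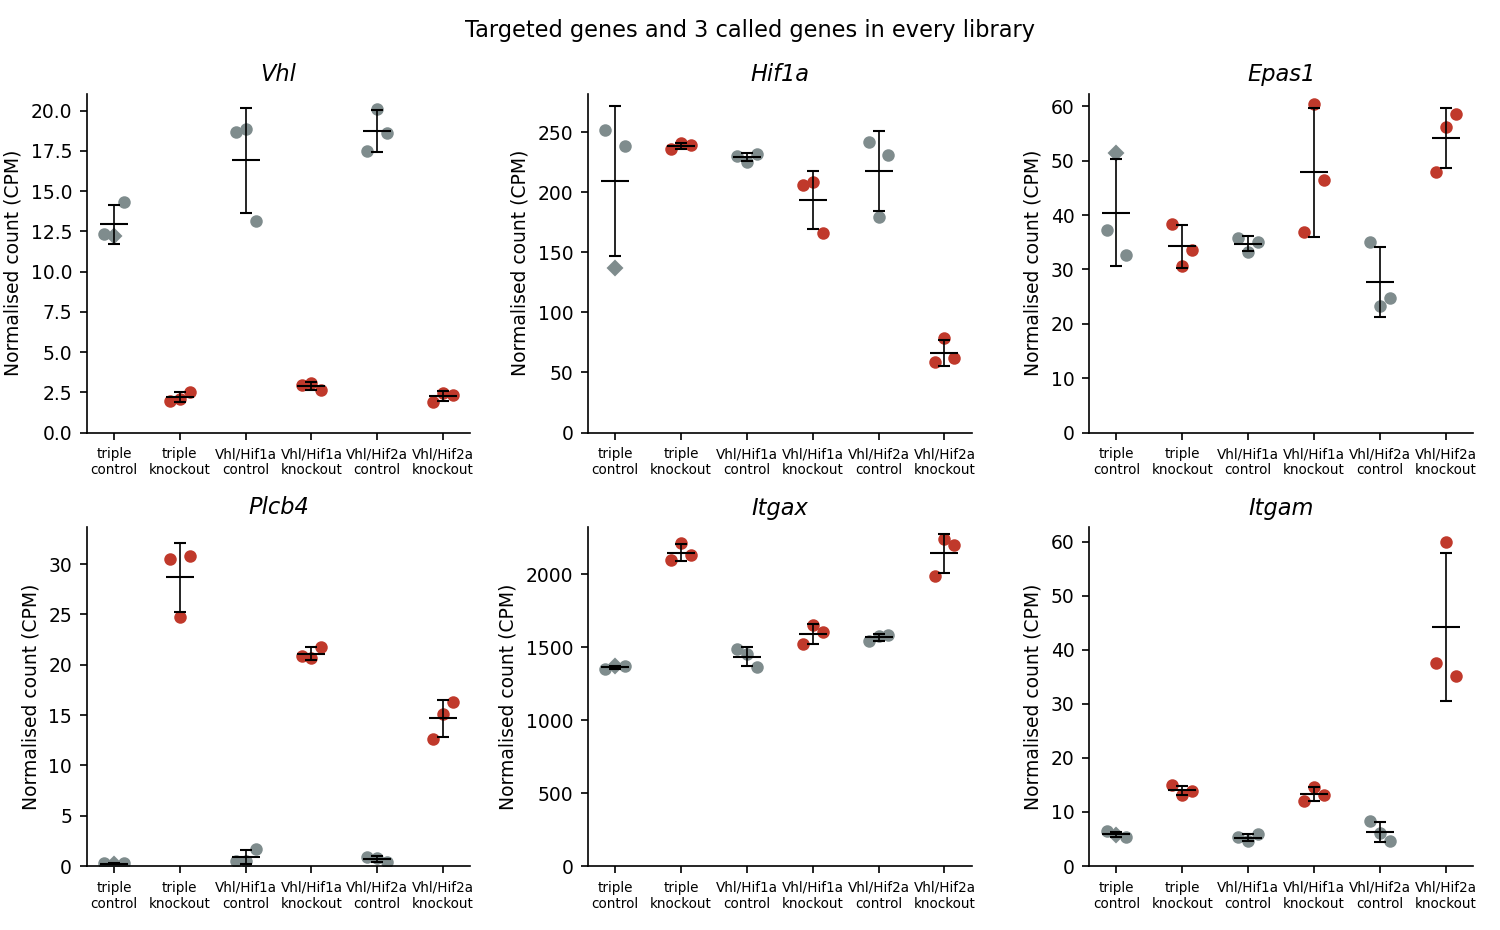
Level of the targeted genes and of Plcb4, Itgax and Itgam in each library of the 6 groups (CPM, axes from 0), with bars at the mean ± SD; the diamond marks control 2. Vhl is low in all 3 knockout groups and Plcb4 is high in all 3, while Hif1a and Epas1 do not separate the triple knockout from its control.

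Plcb4, which encodes a phospholipase C beta isoform that acts downstream of Gq-coupled receptors, had the largest change of the called genes. It stood at 30.5, 24.8 and 30.8 CPM in the knockouts, and at 0.263, 0.166 and 0.306 CPM in the controls. The groups were far apart, with 2517 summed counts against 20. The means were 28.7 ± 3.40 and 0.245 ± 0.0713 CPM (SD, n = 3 each), a 114-fold higher level (log2 fold change 6.83 ± 0.37, 95% interval 6.05 to 7.60; edgeR adjusted p 2.03e-08). Without control 2 the log2 fold change was 6.64.

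The gene was also called in the other crosses. In the Vhl/Hif1a cross Plcb4 stood at 20.9, 20.6 and 21.8 CPM in the knockouts and at 0.464, 0.529 and 1.70 CPM in the controls (log2 fold change 4.52 ± 0.31, edgeR adjusted p 1.29e-07). In the Vhl/Hif2a cross it stood at 12.6, 15.1 and 16.3 CPM against 0.920, 0.811 and 0.372 CPM (4.38 ± 0.32, adjusted p 5.99e-08). All 9 knockout libraries lay above all 9 controls, whose range was 0.166 to 1.70 CPM. The effect in the triple knockout was larger than in the Vhl/Hif1a knockout by 2.31 on the log2 scale (adjusted p 0.032, and 0.079 without control 2) and larger than in the Vhl/Hif2a knockout by 2.45 (adjusted p 0.011, and 0.027 without control 2). Plcb4, Vhl and Itgam were the 3 genes called in the same direction in all 3 crosses.

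Plcb4 spans chr2:135659011-136014593 on GRCm38, and no gene near it was called. Its paralog Plcb1, whose gene ends on the proximal side, had a log2 fold change of -0.22 ± 0.15, and on the distal side Mkks and Slx4ip had 0.34 ± 0.24 and 0.29 ± 0.19. The promoter is shown because Plcb4 had the largest called change, and the windows were searched for the core of the HIF binding element, ACGTG or GCGTG, on both strands (CACGT or CACGC when read on the printed strand; ACGTG and CACGT overlap where the letters are CACGTG). The first RefSeq start on GRCm38.p6 lies inside the span given above, so bases before position 135659011 were not searched. It has no match in the window chr2:135659297-135659596, plus strand, which holds 250 bases before the start and 50 after it. It is printed in lower case, and no letters are in capitals:
Plcb4: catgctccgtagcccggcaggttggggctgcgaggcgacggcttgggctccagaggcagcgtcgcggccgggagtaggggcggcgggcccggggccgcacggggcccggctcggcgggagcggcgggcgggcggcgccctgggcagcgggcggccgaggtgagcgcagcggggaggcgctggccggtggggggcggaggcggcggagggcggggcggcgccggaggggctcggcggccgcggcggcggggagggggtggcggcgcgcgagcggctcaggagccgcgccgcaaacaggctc
The window of the other start, chr2:135764588-135764887, has no match either. A match, or none, is a description of the letters in the window.

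Itgax, the gene of the CD11c integrin alpha chain, was higher in the knockouts. It stood at 2101, 2213 and 2133 CPM in the knockouts and at 1352, 1370 and 1369 CPM in the controls, with no overlap and with little spread in either group. The means were 2149 ± 58.0 and 1364 ± 9.80 CPM (SD, n = 3 each), a 1.58-fold difference (log2 fold change 0.66 ± 0.06, edgeR adjusted p 6.81e-05; 0.66 without control 2). All 9 control libraries of the series lay between 1352 and 1587 CPM, under every triple knockout library. Since the cells were selected on CD11c, and in bulk RNA more cells of a type and more RNA per cell cannot be told apart, this is a level in the selected cells.

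The change of Itgax differed between crosses. In the Vhl/Hif1a cross it had a log2 fold change of 0.15 ± 0.06 (edgeR adjusted p 0.31), and the triple knockout effect was larger by 0.51 (adjusted p 0.0053, and 0.0026 without control 2). In the Vhl/Hif2a cross it was higher by 0.45 ± 0.06 (adjusted p 9.84e-05), and the difference of 0.21 from the triple knockout did not pass (adjusted p 0.18). With spread estimated from the 6 triple-cross libraries alone, the Itgax difference kept its size, 0.66, but had an adjusted p of 0.116.

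Itgam, which encodes the CD11b integrin alpha chain of monocytes, neutrophils and interstitial macrophages, lies next to Itgax and was higher too. It stood at 14.9, 13.1 and 13.9 CPM in the knockouts and 6.45, 5.70 and 5.46 CPM in the controls, again without overlap. The means were 14.0 ± 0.907 and 5.87 ± 0.516 CPM (SD, n = 3 each), 2.38-fold apart (log2 fold change 1.25 ± 0.21, edgeR adjusted p 0.035). In the fit shared by all crosses, leaving out any 1 of the 6 libraries ended this call, with edgeR adjusted p from 0.088 to 0.289. The log2 fold change without control 2 was 1.23. Itgam did pass without control 2 by edgeR on the triple-cross libraries alone (adjusted p 0.024) and by DESeq2 (adjusted p 0.00032). Itgam was higher by 1.34 in the Vhl/Hif1a cross and by 2.80 in the Vhl/Hif2a cross on the log2 scale (adjusted p 0.0007 and 6.7e-08), and the latter exceeded the triple knockout (difference -1.55, adjusted p 0.0024). The model Gm49368 overlaps Itgam and had a mean of 0.0555 CPM in the 6 libraries.

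The genes on either side of this pair were then read in order along the chromosome. Itgam lies at chr7:128062640-128118491 and Itgax at chr7:128129547-128150657, and Itgad, the CD11d chain, follows at chr7:128154376-128223816. Itgad stood at 17.4, 21.2 and 25.1 CPM in the knockouts and 13.7, 12.7 and 16.9 CPM in the controls (log2 fold change 0.56 ± 0.20, edgeR unadjusted p 0.012, adjusted p 0.43), so it did not pass, although all knockouts lay above all controls. The antisense transcript 4931431B13Rik, which overlaps Itgad, had 0.961, 1.10 and 1.18 CPM against 0.263, 0.0832 and 0.420 CPM (2.04 ± 0.57, edgeR unadjusted p 0.0024, adjusted p 0.43). Cox6a2, also within Itgad, had 0.88 ± 0.47. How the counting treated strand is not given in the sources used here, so reads of these overlapping genes may not be separable.

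Outside this run of integrin genes, the adaptor gene Pycard, 140 kb before Itgax, had a log2 fold change of -0.16 ± 0.09, and 9130023H24Rik, 105 kb after it, had 0.02 ± 0.22. Armc5 beside it had -0.39 ± 0.21. Of 59 tested neighbours within 1000 kb of Itgax, 1 was called, Itgam, and 6 had an unadjusted p under 0.05. The latter is a share near the 11.5% of all genes. Itgad was called in both other crosses, with 0.83 in the Vhl/Hif1a cross and 2.67 in the Vhl/Hif2a cross, and the triple knockout effect was below the latter (difference -2.11, adjusted p 0.0001).

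The promoters of the neighbouring integrin genes are shown since both genes were called and Cre is driven by the promoter of Itgax. Both windows are RefSeq starts on GRCm38.p6, plus strand, 250 bases before the start to 50 after it, at chr7:128129300-128129599 for Itgax and chr7:128062390-128062689 for Itgam. Capitals mark the HIF element core, found as CACGC at base -51 from the Itgax start and not found in the Itgam window:
Itgax: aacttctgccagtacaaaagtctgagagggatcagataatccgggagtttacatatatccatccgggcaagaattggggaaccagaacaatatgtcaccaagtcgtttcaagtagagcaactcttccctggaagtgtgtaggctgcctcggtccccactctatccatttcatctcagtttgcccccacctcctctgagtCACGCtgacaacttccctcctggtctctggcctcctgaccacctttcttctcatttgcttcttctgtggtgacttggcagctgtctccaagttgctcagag
Itgam: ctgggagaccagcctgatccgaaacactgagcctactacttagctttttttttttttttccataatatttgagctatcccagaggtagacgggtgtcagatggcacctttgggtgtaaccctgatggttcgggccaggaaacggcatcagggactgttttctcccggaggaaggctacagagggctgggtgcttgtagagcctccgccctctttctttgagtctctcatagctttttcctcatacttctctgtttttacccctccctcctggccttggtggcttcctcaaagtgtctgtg
Of the 5 called genes, 1 had a core in its window (20%), against 66.9% of 9962 tested genes with a promoter in the table and 46.7% of 27025 genes with a promoter. The core is short and frequent, and its presence or absence here says nothing about binding.

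Pagr1a, which encodes a subunit of histone methyltransferase complexes, was the remaining call, and the models that overlap it had lower values in the knockouts. It stood at 21.1, 12.1 and 10.6 CPM in the knockouts and 2.96, 2.87 and 2.29 CPM in the controls (log2 fold change 2.43 ± 0.40, edgeR adjusted p 0.035). Over the same stretch of chromosome 7, where Pagr1a is annotated at chr7:127015033-127017352, the model Gm42742 had 1.96, 11.6 and 10.5 CPM in the knockouts against 20.2, 28.8 and 18.7 CPM in the controls. Pagr1b, another overlapping model, had 0.480, 0.648 and 0 CPM against 1.15, 2.08 and 1.83 CPM.

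The sum of the 3 models was 23 ± 1.71 CPM in the knockouts and 27.0 ± 5.90 CPM in the controls (SD, n = 3 each), with overlapping groups (two-sided exact permutation test, p = 0.5, where 0.1 is the smallest p that 3 against 3 allows). When the 3 were tested as 1 gene, the log2 fold change was -0.23 (edgeR adjusted p 0.448), opposite in sign to that of Pagr1a. The Pagr1a effect was larger than in the other crosses by 3.37 and 2.58 (adjusted p 0.0025 and 0.0085), where its log2 fold changes were -0.94 and -0.15.

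Glycolysis, a pathway that HIF-1 is known to switch on, held no gene called by edgeR, beside 0.0388% of all genes. None of the 23 tested genes of this list passed edgeR's test in the triple knockout, DESeq2 called none of them, and limma voom with quality weights called 1, Pfkfb3 (adjusted p 0.043). The median log2 fold change was -0.20, and the range was -0.54 to 0.30. For 21 of the genes (91.3%) the 95% interval lay within a 2-fold change. In the Vhl/Hif1a cross 8 of the 23 were called higher (median 0.35), beside 2.22% of all genes. In the Vhl/Hif2a cross 18 were higher and 1 lower (median 1.98), beside 7.68% and 7.01% of all genes. The triple knockout effect was lower than the Vhl/Hif1a effect at 7 genes and lower than the Vhl/Hif2a effect at 18. Over all 12900 genes these counts were 194 and 634. The median over all tested genes was -0.01 in the triple knockout.

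Pgk1, phosphoglycerate kinase, gave the plainest case. It stood at 154, 147 and 142 CPM in the knockouts and at 151, 145 and 150.2 CPM in the controls, and the groups overlapped (log2 fold change -0.01 ± 0.10, 95% interval -0.23 to 0.20, edgeR adjusted p 0.96). In the Vhl/Hif2a cross Pgk1 was higher by 3.45 ± 0.11, from 170 ± 33.5 to 1853 ± 39.3 CPM (SD, n = 3 each, edgeR adjusted p 4.8e-12), and the effects differed by -3.46 (adjusted p 4.36e-10). Slc2a1, the glucose transporter GLUT1, stood at 16.7, 15.7 and 17.4 CPM in the triple knockouts and 23.2, 29.2 and 18.1 CPM in the controls, so every knockout lay below every control (-0.50 ± 0.19, edgeR adjusted p 0.43; -0.32 without control 2), and it was higher by 1.72 with Vhl/Hif1a loss and by 3.87 with Vhl/Hif2a loss.

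Part of the distance from the controls went with control 2. Of the 23 glycolysis genes, 11 had all 3 knockouts below all 3 controls and 1 had them above, beside 8.34% and 6.97% of all genes. Aldoa, aldolase A, stood at 999, 1027 and 1005 CPM against 1140, 1658 and 1044 CPM, where the highest value was control 2 (-0.34 ± 0.13, and -0.11 without it). Pkm, pyruvate kinase, stood at 687, 673 and 686 CPM against 829, 1074 and 736 CPM (-0.37 ± 0.12, and -0.20 without control 2). Gapdh and Ldha, the dehydrogenases of the pathway, had -0.29 ± 0.12 and -0.11 ± 0.09, and -0.06 and -0.01 without control 2. The list median without control 2 was -0.08, and 12 of the 23 genes lay below controls 1 and 3 in every knockout, beside 12.1% of all genes.

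Slc16a3, the lactate exporter MCT4, followed the same order, with 40.2, 45.9 and 45.2 CPM in the knockouts and 50.9, 89.1 and 51.4 CPM in the controls (-0.54 ± 0.18, edgeR adjusted p 0.43; -0.22 without control 2). Pfkfb3, which makes the activator of phosphofructokinase, was the gene on the other side. It stood at 56.9, 55.0 and 53.0 CPM in the knockouts and 42.2, 46.6 and 45.1 CPM in the controls, without overlap (0.30 ± 0.08, edgeR unadjusted p 0.0019, adjusted p 0.43). In the Vhl/Hif2a cross these genes were higher by 3.01 and 1.43, and the triple knockout effects differed from these by -3.55 and -1.12.

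**Figure D4:**
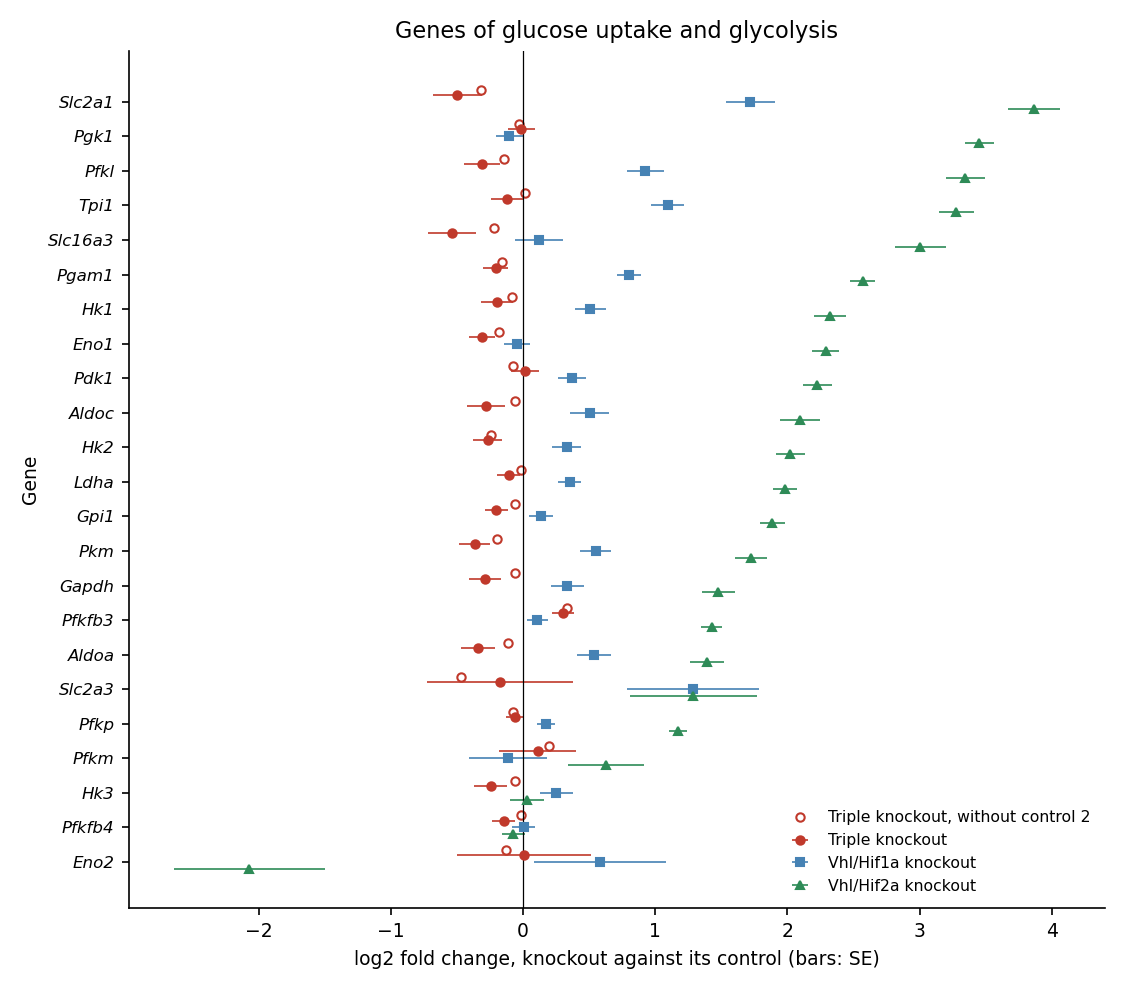
Log2 fold change ± SE of the 23 tested glycolysis genes in the triple knockout, the Vhl/Hif1a knockout and the Vhl/Hif2a knockout, each against its own control; open circles give the triple knockout without control 2. In the triple knockout all values lie between -0.54 and 0.30, and in the Vhl/Hif2a knockout 18 genes were called higher.

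The promoter of Pgk1 is printed because it holds the HIF element core and the interval of its change here was narrow, with a large change in the Vhl/Hif2a cross. The window is chrX:106186850-106187149, plus strand, from RefSeq on GRCm38.p6, and the capitals mark ACGTG at base -150 and CACGT at base -131 from the start:
Pgk1: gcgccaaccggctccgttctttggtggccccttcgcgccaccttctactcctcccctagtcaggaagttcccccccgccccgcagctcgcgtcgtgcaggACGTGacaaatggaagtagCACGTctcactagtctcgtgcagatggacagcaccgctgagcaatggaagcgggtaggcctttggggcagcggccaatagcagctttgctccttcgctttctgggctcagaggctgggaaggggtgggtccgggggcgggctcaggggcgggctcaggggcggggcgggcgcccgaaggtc
Of the glycolysis genes, 19 of 22 with a promoter in the table held a core (86.4%), against 66.9% of tested genes. None of these 19 was called by edgeR in the triple knockout, beside 0.0388% of all genes.

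Of 45 tested genes in the list of other hypoxia responses, edgeR called none, beside 0.0388% of all genes. The median log2 fold change was -0.00 (0.01 without control 2), and 32 (71.1%) had an interval within a 2-fold change. DESeq2 and limma voom each called 1 of them, Narf, which was lower (adjusted p 0.013 and 0.032) and is described further on. The Vhl/Hif1a cross had 13 of the 45 higher and 1 lower, beside 2.22% and 1.42% of all genes. The Vhl/Hif2a cross had 36 higher and none lower, beside 7.68% and 7.01% of all genes. The triple knockout effect was lower than the Vhl/Hif1a and Vhl/Hif2a effects at 9 and 26 genes, beside 194 and 634 of all 12900 genes. Bnip3, a mitophagy receptor, stood at 19.8, 19.9 and 20.7 CPM in the knockouts and at 19.5, 14.4 and 18.2 CPM in the controls (0.21 ± 0.17, edgeR adjusted p 0.52), and it was higher by 2.39 and 4.31 in the other crosses. Of the 45, 4 had all knockouts below all controls and 2 above, beside 8.34% and 6.97% of all genes.

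Egln3 and Egln1, the oxygen-sensing hydroxylases that are themselves HIF targets, were not called here. Egln3 was barely detected, at 0.206, 0.162 and 0.428 CPM in the triple knockouts and 0.724, 0.374 and 0.191 CPM in the controls, with overlapping groups. In the other knockouts it stood at 485 ± 82.7 and 316 ± 24.3 CPM (SD, n = 3 each), with log2 fold changes of 5.41 and 6.08 (edgeR adjusted p 0.0033 and 0.00071). In each of those crosses 1 control library held far more Egln3 than the rest (32.5 and 11.5 CPM). The tests of the difference from the triple knockout did not pass (adjusted p 0.28 and 0.15), and the interval for the triple knockout itself was -5.81 to 4.30. Egln1 stood at 60.5, 61.5 and 58.1 CPM against 58.2, 81.2 and 62.1 CPM (-0.16 ± 0.10, edgeR adjusted p 0.45; -0.00 without control 2), and its effect differed from those in the other crosses by -0.65 and -2.34 (adjusted p 0.021 and 1.31e-08).

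Of 19 tested HIF subunits and oxygen sensors, Vhl was the only call. Arnt, the shared beta subunit, had 0.07 ± 0.07, Egln2 had -0.44 ± 0.19, or -0.07 without control 2, and Hif1an, the asparaginyl hydroxylase, had -0.12 ± 0.13. None of 14 genes described elsewhere as HIF-2 alpha dependent was called, beside 0.0388% of all genes. In the Vhl/Hif1a knockout 1 of the 14 was higher and 4 were lower (median -0.19), beside 2.22% and 1.42% of all genes. In the Vhl/Hif2a knockout 3 were higher and 2 lower, beside 7.68% and 7.01% of all genes. The list was thus not raised as a set in either cross.

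Genes that changed in the other crosses were followed through the triple knockout. By the interaction test over all genes, 263 effects differed from those of the Vhl/Hif1a knockout and 1031 from those of the Vhl/Hif2a knockout. The 286 genes higher in the Vhl/Hif1a knockout had a median log2 fold change of 1.04 there and -0.10 in the triple knockout (-0.03 without control 2), and 177 of them (61.9%) differed between the crosses by the interaction test. The 991 genes higher in the Vhl/Hif2a knockout had a median of 0.82 there and -0.07 in the triple knockout (-0.02 without control 2), and 571 (57.6%) differed. For the 183 and 904 genes that were lower there, the triple knockout medians were -0.03 and -0.03, and 31.7% and 39.9% differed. These genes were chosen for passing in the other crosses, and the interaction test uses the same values, so their medians there and the shares that differed are raised by the choice and support nothing on their own. Of the 5 triple knockout calls, 3 were shared in the same direction with the Vhl/Hif1a knockout (60% of the triple calls and 0.640% of 469) and 4 with the Vhl/Hif2a knockout (80% and 0.211% of 1895).

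Antigen presentation genes held no call here, beside 0.0388% of all genes. Of the 16 tested, the Vhl/Hif1a knockout had 8 higher and 1 lower, beside 2.22% and 1.42% of all genes. The Vhl/Hif2a knockout had 7 lower and none higher (median -0.51), beside 7.01% and 7.68% of all genes. None of the 16 passed in the triple knockout (median -0.19, and -0.10 without control 2), and 4 had every knockout below every control, against 8.34% of all genes. Cd74, the invariant chain, stood at 222, 277 and 211 CPM in the knockouts and at 323, 446 and 520.0 CPM in the controls, without overlap and with a wide spread among controls (-0.86 ± 0.33, edgeR adjusted p 0.43; -0.83 without control 2). H2-Aa and H2-Ab1, the class II chains, had -0.82 ± 0.35 and -0.94 ± 0.34. In the Vhl/Hif1a knockout these 3 were higher by 3.70, 3.77 and 3.80, and the triple knockout effect differed from that by -4.56, -4.59 and -4.74 (adjusted p 2.65e-05, 4.14e-05 and 2.67e-05). Dendritic cell markers, which could carry class II, had a summed level of 252 to 264 CPM in the knockouts and 244 to 326 CPM in the controls, with 0 of 13 called, and their part in these values was not tested.

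Proliferation and interferon genes held no call either, beside 0.0388% of all genes. None of 35 proliferation genes was called (median 0.10) and all 35 intervals lay within a 2-fold change. In the Vhl/Hif1a knockout 5 were lower and in the Vhl/Hif2a knockout 26, beside 1.42% and 7.01% of all genes. When triple control 2 was left out of the shared fit, 17 and 29 were lower, beside 399 and 1400 of 13151 genes. The triple knockout median was then 0.01. Mki67, a marker of cycling cells, stood at 268, 181 and 220 CPM in the knockouts and 198, 153 and 168 CPM in the controls, with overlap (0.37 ± 0.18, edgeR adjusted p 0.43), and its effect exceeded that in the Vhl/Hif2a knockout by 1.20 (adjusted p 0.0057). None of 36 type I interferon genes was called (median -0.06, and -0.11 without control 2). In the Vhl/Hif1a and Vhl/Hif2a knockouts 8 and 23 were lower, beside 1.42% and 7.01% of all genes.

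Csf3r and Cxcr2, receptors for G-CSF and for neutrophil chemokines, were lower in the other crosses and not called here. Csf3r stood at 74.3, 75.5 and 80.7 CPM in the knockouts and 72.8, 79.1 and 67.7 CPM in the controls, with overlap (0.07 ± 0.11, edgeR adjusted p 0.74), against -1.37 with Vhl/Hif1a loss and -1.07 with Vhl/Hif2a loss. Cxcr2 stood at 20.6, 21.1 and 21.8 CPM against 16.4, 14.2 and 19.5 CPM, without overlap (0.34 ± 0.15, edgeR adjusted p 0.43), and had -1.45 and -1.79 in the other crosses. The differences between crosses were 1.44 and 1.14 for Csf3r and 1.78 and 2.13 for Cxcr2, and all 4 passed. The 13 neutrophil markers in the table, which include both genes and of which 7 were tested and none called, summed to 151 to 175 CPM in the knockouts and 137 to 147 CPM in the controls. These markers did not all move alike in the other crosses. In the Vhl/Hif1a knockout 3 of the 7 were lower and 1 higher, beside 1.42% and 2.22% of all genes. In the Vhl/Hif2a knockout 2 were lower and 1 higher, beside 7.01% and 7.68% of all genes.

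The label of alveolar macrophages was checked against identity genes. Of 37 tested identity genes, 1 was called, Itgax, and 36 had an interval within a 2-fold change. The summed level of all 38 identity genes in the table was 55596 to 56836 CPM in the knockouts and 46024 to 52309 CPM in the controls, the lowest in control 2. Chil3, a chitinase-like secreted protein, had 0.30 ± 0.12, Lpl, lipoprotein lipase, had 0.19 ± 0.21, Cd9, a tetraspanin, had -0.00 ± 0.06, and Abcg1, a cholesterol exporter, had -0.01 ± 0.07, and none passed. Siglecf, the defining surface lectin, stood at 539, 578 and 522 CPM against 518, 562 and 584 CPM (-0.02 ± 0.09).

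The sums of markers of other cells differed widely between lists, each taken over all members in the table, tested or not. T and NK cell markers summed to 0.321 to 0.652 CPM in the knockouts and 0.229 to 0.583 CPM in the controls, with 4 markers at 0 in all 6 libraries. Lung epithelium markers summed to 365 to 420 CPM in the knockouts and 427 to 464 CPM in the controls, and endothelium and fibroblast markers to 2.23 to 2.92 and 2.60 to 4.62 CPM. Erythrocyte markers summed to 2.61 to 2.98 CPM in the knockouts and 1.18 to 2.21 CPM in the controls. Of 18 tested monocyte and interstitial macrophage genes, 1 was called, Itgam, whose call depended on the fit as described above. The 26 genes of that list in the table summed to 894 to 931 CPM in the knockouts and 953 to 983 CPM in the controls. Single genes held a large part of these sums, so a sum is not a measure of how many cells of a type were present. Adgre1, of the monocyte and interstitial macrophage list, had a mean of 452 CPM in controls 1 and 3. Epcam, of the lung epithelium list, had a mean of 191 CPM in the 6 libraries. Which cells these reads came from, and the part of any of these cells in the called genes, was not tested.

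Metabolic and housekeeping lists gave no call, beside 0.0388% of all genes. These held 55 nuclear genes of oxidative phosphorylation, 20 of the tricarboxylic acid cycle, 20 of fatty acid oxidation, 24 of cholesterol synthesis and uptake, 35 of lipid and surfactant handling, 29 of lysosome and phagocytosis and 54 of cytosolic ribosomal proteins. Their medians lay between -0.15, for cholesterol genes, and -0.01, for lipid handling. Without control 2 the medians ran from -0.13, for cholesterol genes, to 0.08, for lipid handling, and that of ribosomal protein genes went from -0.09 to 0.04. Every knockout lay above controls 1 and 3 for 21 of the 54 ribosomal protein genes and below for 1, beside 1373 and 1560 of all 12900 genes. In the Vhl/Hif2a knockout, 8 of 24 cholesterol genes were lower and 21 of 54 ribosomal protein genes were higher, beside 7.01% and 7.68% of all genes. When triple control 2 was left out of the shared fit, these numbers were 13 and 47, beside 1400 and 1507 of 13151 genes. The 13 mitochondrially encoded genes had a median of 0.41, which was 0.03 without control 2, and none was called. Their share of counts was 2.71% ± 0.371 in the knockouts and 2.02% ± 1.14 in the controls (SD, n = 3 each; two-sided exact permutation test, p = 0.5), and without control 2 the groups differed by 0.0329 percentage points.

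Lists of stress, immune and other genes held no call either, beside 0.0388% of all genes. They were MHC class I presentation (14 tested genes, median log2 fold change -0.27, and -0.05 without control 2), the amino acid stress response (23, -0.12, and -0.04 without it), oxidative stress and iron (23, -0.21, and -0.10), alternative activation (15, -0.22, and -0.05), fatty acid synthesis (14, -0.16, and -0.09), dissociation and immediate early genes (23, -0.29, and -0.09) and the Myc network (8, 0.06, and 0.20). In the class I list, 6 of 14 genes had every knockout below every control and 0 above, beside 8.34% and 6.97% of all genes. Against controls 1 and 3 alone, 6 still lay below, beside 12.1% of all genes. Of 22 inflammatory cytokines and chemokines none was called (median -0.17, and -0.11 without control 2). The 29 members in the table summed to 5518 to 6219 CPM in the knockouts and 4432 to 5245 CPM in the controls. Ccl6, a myeloid chemokine, held most of that sum, with 5346, 4933 and 4713 CPM in the knockouts and 3999, 3710 and 4493 CPM in the controls, without overlap (0.30 ± 0.12, edgeR adjusted p 0.43; 0.24 without control 2). Ccl9, a related chemokine, stood at 192, 147 and 156 CPM against 117, 98.9 and 126 CPM, also without overlap (0.53 ± 0.18, edgeR adjusted p 0.43; 0.44 without control 2). Eosinophil and mast cell markers, of which 2 were tested and none called, summed to 26.0 to 40.8 CPM in the knockouts and 19.9 to 24.4 CPM in the controls, and B cell markers to 0.720 to 0.907 and 0.494 to 1.08 CPM.

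Beyond the 5 genes, DESeq2 or limma voom with quality weights called some that edgeR's test over the 18 libraries did not. Narf, a prelamin A-binding factor, stood at 11.5, 10.1 and 10.7 CPM in the knockouts and 16.1, 16.0 and 16.8 CPM in the controls (-0.59 ± 0.12, edgeR adjusted p 0.28, DESeq2 adjusted p 0.013, voom adjusted p 0.032), and had -0.47 in the Vhl/Hif1a cross and was higher by 1.87 in the Vhl/Hif2a cross. Arrb1, beta-arrestin 1, stood at 25.9, 23.9 and 22.3 CPM against 38.2, 42.1 and 37.0 CPM (-0.70 ± 0.15, edgeR adjusted p 0.39, DESeq2 adjusted p 0.012), while in the other crosses it was higher by 2.31 and 1.46. Both tools called Arrb1 (voom adjusted p 0.040), as did edgeR with the triple-cross libraries alone and control 2 left out (adjusted p 0.047). These were the only 3 of 19 alternatives that called it, and edgeR's fit shared by all crosses did not when control 2 was left out. Prkcd, protein kinase C delta, stood at 269.5, 269.5 and 274 CPM against 325, 365 and 331 CPM (-0.33 ± 0.07, edgeR adjusted p 0.39) and was called by both tools. These 3 genes did not overlap between groups, beside 8.34% of all genes with every knockout below every control. Without control 2 they kept their direction, with log2 fold changes of -0.61, -0.64 and -0.27. They were named because these tools called them on the same libraries, so neither trait is separate support.

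Among genes with few counts, the changes by these tools were larger. Gm27232, a gene model with no assigned name, stood at 0, 0.194 and 0 CPM in the knockouts and 1.41, 1.75 and 0.840 CPM in the controls (edgeR adjusted p 0.11). It was called by DESeq2 (adjusted p 4.3e-05) and limma voom (0.040), and also by edgeR with no filter beyond 1 count (0.0093) and without knockout 2 (0.032). Cyp4a12b, a cytochrome P450, stood at 1.37, 0.777 and 0.892 CPM against 0.263, 0.166 and 0.229 CPM, and only DESeq2 called it (log2 fold change 2.17 ± 0.47, edgeR adjusted p 0.39, DESeq2 adjusted p 0.032). Hist1h2ao, a histone gene with near-identical copies whose reads are hard to assign, was called by DESeq2 alone (adjusted p 0.0068) with 0 CPM in every knockout and 4.94, 6.87 and 0 CPM in the controls, so the groups overlapped at 0.

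The genes that limma voom alone called outside the glycolysis list were abundant enough to compare by library. Nabp1, a single-strand DNA-binding protein, stood at 624, 588 and 621 CPM in the knockouts and 463, 306 and 488 CPM in the controls (0.54 ± 0.13, and 0.36 without control 2; voom adjusted p 0.032). Ptafr, the receptor of platelet-activating factor, stood at 9.949, 11.01 and 9.316 CPM against 19.1, 16.7 and 15.4 CPM (-0.76 ± 0.27, voom adjusted p 0.032). Ehd1, an endocytic recycling protein, stood at 123, 128 and 124 CPM against 163, 211 and 148 CPM (-0.48 ± 0.11, and -0.31 without control 2; voom adjusted p 0.049). The groups of these 3 genes did not overlap, and edgeR's adjusted p was 0.43 for each. Over all genes, every knockout lay above every control for 6.97% and below for 8.34%. The 3 genes were named for a call on the same libraries, so the lack of overlap is no separate support.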

How the data were processed

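Gene-level RNA-seq values of 18 mouse alveolar macrophage libraries (6 groups of 3) were used. The authors deposited 1 table of expected counts per gene, not normalized: 89.3% of its values are whole numbers, read from the values themselves. FastQC, cutadapt, STAR and GRCm38 are named in the submitters' processing notes; versions, the counting tool, its strand setting and the annotation were not stated there or in the labels. Identifiers were matched to GENCODE models and RefSeq promoters (GRCm38.p6).

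Expected counts were rounded to whole numbers. Genes were kept by filterByExpr (minimum count 10, minimum total 15), which left 12900 of 32789 genes and 99.97% of counts, and were tested with edgeR 4.0.16 in R 4.3.3 (TMM factors, quasi-likelihood, two-sided, 6 groups in 1 fit of all 18 libraries, Benjamini-Hochberg over all genes tested, threshold 0.05). Differences between crosses are interaction contrasts of the same fit. CPM uses TMM-scaled library sizes of 19230000 to 34015000 counts before scaling. The SEs were derived from the test, as the absolute log2 fold change divided by the square root of its F statistic. Intervals apply a t quantile to these SEs, so both are approximations. DESeq2 1.42.0 and limma 3.58.1 were alternatives, with other scalings and filters, the triple cross alone, a replicate block and each library left out. The script was tested on simulated data.

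Genes were named by rule: the targeted genes, called neighbours of Itgax, the up to 15 highest and 15 lowest called genes with a mean of at least 1 CPM and groups that do not overlap, and per list the called members or up to 4 with the highest mean. The comparison and the lists were chosen with earlier results of these data known, and genes named outside the rule, such as Pgk1, Slc2a1, Slc16a3, Pfkfb3, Egln3, Bnip3, Siglecf, H2-Aa, H2-Ab1, Itgad, Narf, Arrb1, Prkcd, Gm27232, Cyp4a12b, Hist1h2ao, Nabp1, Ptafr and Ehd1, were chosen after their values were seen; 1 further gene is not reported here. Within each triple-cross group, no 2 libraries were alike within sampling noise; other pairs were not compared.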

Additional observations from a re-analysis of the deposited data

Results flagged for a closer look

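The effects of the triple knockout were set against those of the other crosses for 33 genes, which gave 66 tests of a difference. Of these, 40 passed an adjusted p of 0.05 by edgeR's quasi-likelihood test. Many of the 33 genes were chosen after their values were seen, so the choice raises this share. It supports nothing on its own. Over all 12900 genes, 263 effects differed from those of the Vhl/Hif1a knockout and 1031 from those of the Vhl/Hif2a knockout. The sexes of the crosses differ, so genotype and sex cannot be told apart in any of these tests. Each value is the log2 fold change in the triple knockout minus that in the other knockout, each against its own control.

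Some glycolysis genes had a lower effect than in the other crosses. Against the Vhl/Hif1a knockout, the differences that passed among the 8 named were -0.88 for Aldoa, -0.92 for Pkm and -2.22 for Slc2a1. Against the Vhl/Hif2a knockout, they were -3.46 for Pgk1, -1.73 for Aldoa, -2.09 for Pkm, -1.77 for Gapdh, -2.09 for Ldha, -4.37 for Slc2a1, -3.55 for Slc16a3 and -1.12 for Pfkfb3. Other HIF targets had -0.65 for Egln1 and -2.18 for Bnip3 against the Vhl/Hif1a effect, and -2.34 and -4.09 against the Vhl/Hif2a effect. Narf had -2.46 against the Vhl/Hif2a effect, and Arrb1 had -3.01 and -2.16 against the Vhl/Hif1a and the Vhl/Hif2a effect. Gm27232 had -4.70 and -3.86 and Nabp1 had 0.86 and 0.74 in the same order, and Ehd1 had -0.99 against the Vhl/Hif2a effect.

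Class II genes differed from the Vhl/Hif1a effect, by -4.56 for Cd74, -4.59 for H2-Aa and -4.74 for H2-Ab1. The receptors of granulocytes differed the other way, by 1.44 and 1.14 for Csf3r and by 1.78 and 2.13 for Cxcr2 against the Vhl/Hif1a and the Vhl/Hif2a effect. Mki67 differed from the Vhl/Hif2a effect by 1.20.

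Of the called genes, Plcb4 differed by 2.31 and 2.45 and Pagr1a by 3.37 and 2.58 from the Vhl/Hif1a and the Vhl/Hif2a effect, Itgax differed by 0.51 from the former, and Itgam by -1.55 from the latter. Itgad, beside Itgax, differed by -2.11 from the Vhl/Hif2a effect. Of the targeted genes, Hif1a differed by 1.90 and Epas1 by -1.21 from the Vhl/Hif2a effect.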

How the results depend on the processing

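Plcb4 and Vhl were called in 19 of 19 alternatives and Itgax in 18. Itgam was called in 11 and Pagr1a in 10. The number of genes called in the triple knockout was 11 with DESeq2 (6 lower), 13 with limma voom and library weights (7 lower), 2 with the 6 triple-cross libraries alone (1 higher), and 2 of its calls were lower when no filter beyond 1 count was used. With each library left out in turn it ran from 3 to 4 (2 higher each time, 1 to 2 lower). Over the same omissions, calls ran from 420 to 861 in the Vhl/Hif1a cross and from 1708 to 2907 in the Vhl/Hif2a cross, both highest without control 2, and differences between crosses ran from 164 to 401 for the Vhl/Hif1a effect, lowest without knockout 1 and highest without control 3, and from 675 to 1390 for the Vhl/Hif2a effect, with the same libraries at the ends. For those numbers limma voom gave 1337, 3302, 726 and 2056, and DESeq2 gave 479 differences from the Vhl/Hif1a effect. The alternatives chosen after seeing the data were these. The triple cross alone without control 2 gave 2 lower calls, DESeq2 without control 2 gave 2 lower calls, 1099 and 3110 calls in the other crosses and 422 differences from the Vhl/Hif1a effect, and offsets for GC content gave 797 calls in the Vhl/Hif1a cross and 5 in the triple cross. Summing the overlapping Pagr1 models gave Pagr1a a log2 fold change of -0.23. The causes of these movements were not tested.

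The replicate numbers did not pair the libraries: same-numbered knockout and control libraries deviated with correlations of 0.125, -0.0431 and -0.138, and only number 1 matched its own best. With a replicate block 4 genes were called, Itgam having an adjusted p of 0.097, and 150 differed from the Vhl/Hif1a effect. Genes with few counts, such as Egln3, allow no narrow interval.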
